A study of Mus musculus with 24 samples.

Results

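H3K27ac peaks were examined at the Cyp2b gene cluster on mouse chromosome 7, which holds the 5 genes Cyp2b10, Cyp2b13, Cyp2b9, Cyp2b23 and Cyp2b19 of 22350 protein-coding genes annotated on the autosomes and X. A peak was assigned to a gene where it overlapped the gene body or the 10 kb on either side, and these stretches are called windows below. H3K27ac is acetylation of histone H3 at lysine 27, a mark of active promoters and enhancers that ChIP-seq maps by sequencing the DNA bound by an antibody against it. The study asked which sex differences in liver regulatory elements are shared by inbred strains that are far apart in evolution, C57BL/6J (B6) and CAST/EiJ (CAST). It used 20 livers, namely 5 from B6 males, 5 from B6 females, 5 from CAST males and 5 from CAST females, and each group had 1 sequenced input. The mice were aged 8 weeks, and the labels name no transgene, drug or other treatment. Groups were taken from the sample titles, because the labels also carry a strain field in which all females are CAST and all males B6, against 2 of the 4 groups of titles. Each of the 4 peak lists pools the 5 livers of a group, so no value has an error, no difference was tested, and each comparison describes these lists.

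Cyp2b genes encode cytochrome P450 monooxygenases of the endoplasmic reticulum that oxidise drugs, steroids and fatty acids. Cyp2b10 is the classic mouse target of phenobarbital, which acts through the nuclear receptor CAR (Nr1i3), while Cyp2b9 and Cyp2b13 are known in mouse liver for higher expression in females, under control of the sex-dependent pattern of pituitary growth hormone. Cyp2b19 is best known from skin keratinocytes, and the role of Cyp2b23 is less clear. In bulk liver, fewer cells carrying a mark and less of the mark in each cell cannot be told apart.

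The lists held between 79862 and 90228 peaks, and the CAST male list was the longest. Read numbers are not part of the peak lists, and sequencing depth per liver, which the study describes elsewhere, was not used here. The tissue was checked at 5 hepatocyte genes: the windows of Alb, Apoa1, Ttr and Hnf4a held peaks in all 4 lists, and that of Serpina1a, a member of a family of close copies, held none in any list. Alb had between 7 and 11 peaks per list and Hnf4a between 14 and 18.

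The sequences around the cluster bear on what the peak lists could record, because the authors kept only reads that mapped to 1 place. The promoters of Cyp2b13 and Cyp2b9 were the most alike of the 10 pairs of member promoters. They are shown from 250 bases before to 50 bases after the annotated transcript start, 5′ to 3′ on the plus strand of mm9, at chr7:26846264-26846563 and chr7:26958180-26958479. Capitals mark the bases that differ between them, the end bases with no partner included.

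Cyp2b13 promoter: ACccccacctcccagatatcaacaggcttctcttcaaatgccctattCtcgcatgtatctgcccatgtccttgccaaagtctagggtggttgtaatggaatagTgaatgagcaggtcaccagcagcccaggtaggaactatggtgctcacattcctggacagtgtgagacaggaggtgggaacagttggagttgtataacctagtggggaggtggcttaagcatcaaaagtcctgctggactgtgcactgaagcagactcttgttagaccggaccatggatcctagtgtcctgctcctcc
Cyp2b9 promoter: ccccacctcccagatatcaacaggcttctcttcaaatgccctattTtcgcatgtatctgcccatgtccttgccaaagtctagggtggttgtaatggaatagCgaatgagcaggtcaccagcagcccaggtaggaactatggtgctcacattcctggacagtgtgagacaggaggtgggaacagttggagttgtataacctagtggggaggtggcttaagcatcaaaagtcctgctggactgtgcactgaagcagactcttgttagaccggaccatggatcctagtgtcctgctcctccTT

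The Cyp2b13 and Cyp2b9 promoters were identical at 296 of 302 aligned positions (98.0%), with 2 mismatches and 4 unpaired end bases. The other pairs of member promoters were between 53.0% and 72.0% identical. The Cyp2b10 promoter was 54.3% identical to that of Cyp2b9 and 55.2% identical to that of Cyp2b13.

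The stretch upstream of Cyp2b10 is shown because it holds a match to the element through which CAR is known to act, AGGTCA followed after 4 bases by AGTACA or AGGTCA, searched on both strands. The 150 bases at chr7:26680274-26680423 are printed on the plus strand, and capitals mark the match, which lies 2298 to 2283 bases before the transcript start and reads in the reverse direction here.

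Cyp2b10 upstream stretch: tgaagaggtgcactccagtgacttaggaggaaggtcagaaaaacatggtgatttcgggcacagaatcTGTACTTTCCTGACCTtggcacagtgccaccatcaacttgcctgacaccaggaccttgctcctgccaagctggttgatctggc

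Of the 5 members, Cyp2b10 was the only gene with this motif in the 3 kb upstream of its start. The motif occurred in the upstream 3 kb of 28 of 22350 protein-coding genes (0.125%). In B6, a peak of either sex covered the match. In CAST, the peaks on its left ended at 26680289 in males and at 26680272 in females, short of the match at 26680341-26680356, and the next female peak began at 26680634. A match describes the letters of the reference and not an occupied site.

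The windows of the 5 genes span 237.6 kb, and females of both strains had more of them under peaks than males. There were 5 peaks in each male list, against 26 in B6 females and 20 in CAST females. Their median fold enrichment was 2.67 in B6 males and 2.24 in B6 females, and 1.97 in CAST males and 2.38 in CAST females. Peaks of B6 males covered 4.96 kb of the windows and those of B6 females 17.6 kb. The CAST male peaks covered 2.5 kb and the CAST female peaks 11.3 kb. Both female lists therefore lay above both male lists, although the CAST male list was the longest over the genome. Covered bases were 3.55-fold higher in B6 females than in B6 males and 4.51-fold higher in CAST females than in CAST males. With each covered base weighted by the fold enrichment of its peak, which is the authors' ratio of ChIP signal to background at the summit, the ratios were 3.48 and 4.96. Between strains, CAST covered less than B6, by a CAST to B6 ratio of 0.503 in males and 0.640 in females. Over the whole stretch from Cyp2b10 to Cyp2b19, described further on, the ratio was 0.951 in females and 0.503 in males. When peaks were restricted to gene bodies, the female to male ratio of covered bases was 10.2 in B6 and 16.3 in CAST, resting on 1 male peak in each strain.

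**Figure D1:**
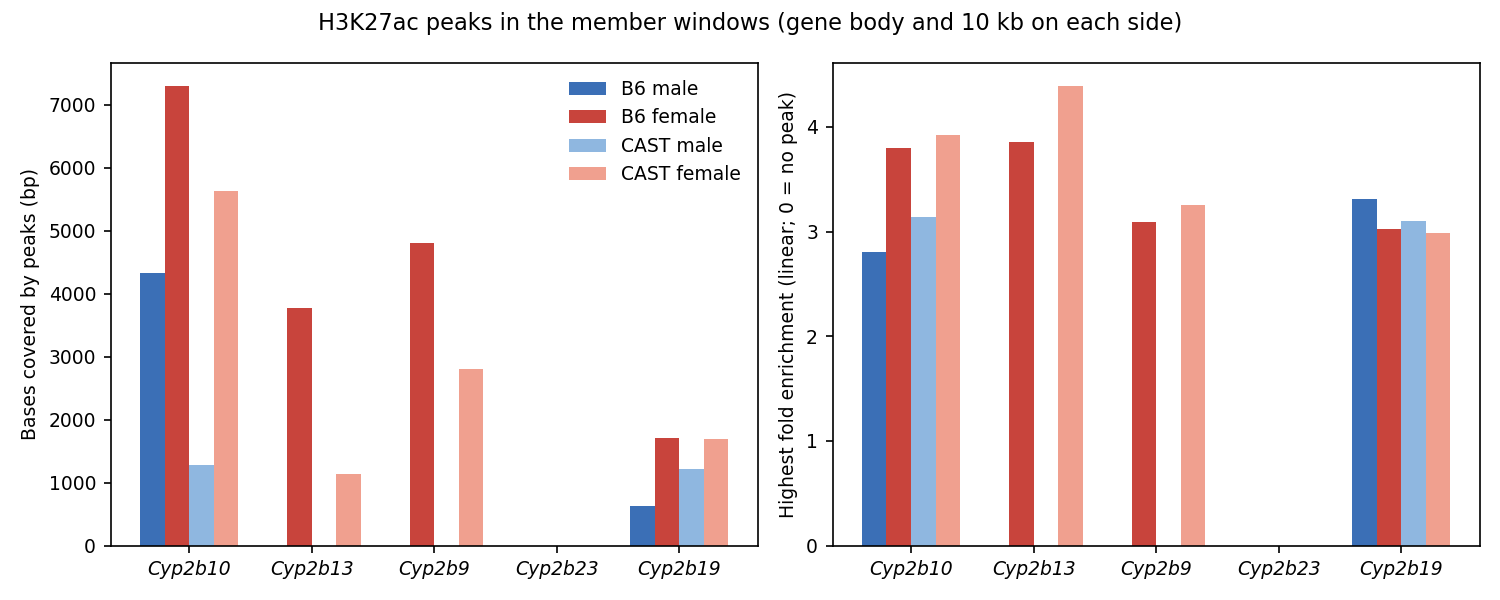
Bases covered by H3K27ac peaks (left, in bp) and the highest fold enrichment of any peak (right, linear scale, 0 where no peak was called) for each Cyp2b gene and its flanking 10 kb, with 1 bar per peak list and no error bars, since each list pools 5 livers. Cyp2b13 and Cyp2b9 have bars in the female lists only, and Cyp2b23 has none.

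A gene was called female-higher where the female list covered at least 500 bp of its window and at least 1.5-fold more than the male list. In B6 this held for 4 of the 4 members with enough coverage, against 4.73% of the protein-coding genes with enough coverage. In CAST it held for 3 of 4, namely Cyp2b10, Cyp2b13 and Cyp2b9, against 2.60% of genes. The same 3 members were called in both strains, against 0.643% of genes (100 of 15560). Of the 4 members, 0 were called male-higher in either strain, against 5.98% of genes in B6, 9.41% in CAST and 1.70% in both, so this count is near the background. Over genes with at least 500 bp in both sexes, the median female to male ratio was 0.970 in B6 and 0.928 in CAST.

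**Figure D2:**
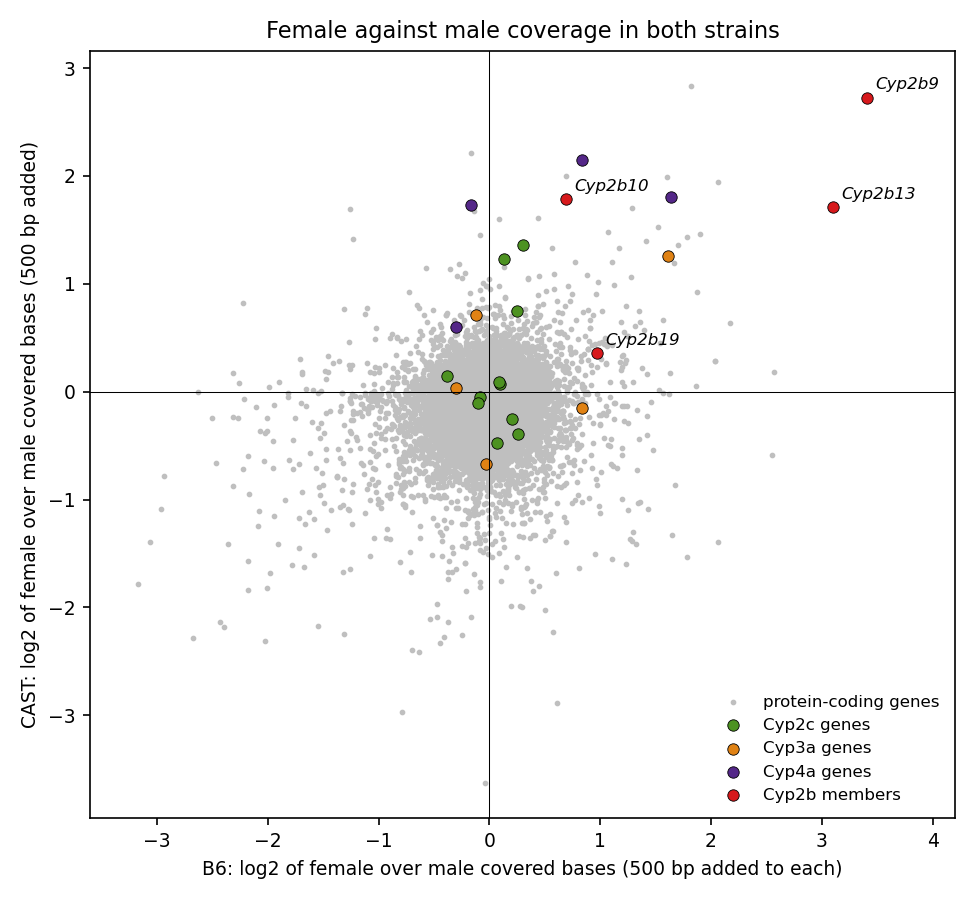
Female to male ratio of covered bases on a log2 scale, with 500 bp added to each value, in B6 (horizontal) and CAST (vertical) for the 15560 protein-coding genes with at least 500 bp covered in 1 sex of each strain. Cyp2b9 and Cyp2b13 lie at the upper right edge of the cloud and Cyp2b10 in the upper right quadrant, and Cyp2b19 lies to the right of the centre.

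Cyp2b9 (ENSMUSG00000040660.6, chr7:26958430-26995680, plus strand, 9 exons) is a steroid hydroxylase gene known as female-predominant in mouse liver. Its window held 8 peaks in B6 females, 6 in CAST females and 0 in each male list. Peaks covered 4814 bp in B6 females and 2808 bp in CAST females. There was no overlap between the sexes at this gene, because neither male list had a call. All of the B6 female peaks but 1, and all of the CAST female peaks but 1, overlapped the gene body, and the exceptions lay downstream of it. No peak lay within 10 kb upstream or in the first 14.3 kb of the gene in any list.

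The 8 regions formed at Cyp2b9 by merging overlapping peaks were called in B6 females in every case, and 6 of them in CAST females too. The region of highest score in B6 females lay 14.32 to 15.14 kb from the start, at chr7:26972752-26973574, and overlapped exon 4 in its B6 peak; its fold enrichment was 3.10 (B6) and 3.25 (CAST), with summits 22 bp apart. The region in intron 8 at chr7:26986350-26987469 had the highest score in CAST females, at 3.20-fold over 1120 bp, against 2.02-fold over 463 bp in B6 females. The intron 4 region at chr7:26981868-26982601 went the other way, with 2.94-fold over 734 bp in B6 females and 2.19-fold over 263 bp in CAST females. The female lists of the strains thus shared most positions at Cyp2b9, while at 5 of the 6 shared regions their covered bases differed by more than 2-fold, in either direction. Such a difference was seen at 0 of 5 shared regions of Cyp2b10, 0 of 1 of Cyp2b13 and 0 of 3 of Cyp2b19. The share over the genome was not counted. The other 3 shared regions of Cyp2b9 lay 15.43 kb, 33.49 kb and 40.13 kb from the start, with fold enrichments between 2.24 and 2.94.

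Cyp2b13 (ENSMUSG00000040583.6, chr7:26846514-26881215, plus strand, 9 exons), the close paralog of Cyp2b9 and likewise known as female-predominant, had 5 peaks in B6 females, 2 in CAST females and 0 in each male list. Females covered 3779 bp in B6 but 1135 bp in CAST. The male lists were again empty, and the strains differed more than at Cyp2b9. The 4 peaks inside the gene were called in B6 females alone. The strongest of them, in intron 4 at chr7:26867315-26868900, covered 1586 bp with a fold enrichment of 3.86 and a score above that of 76.4% of its list. The 1 region shared by the strains lay downstream of the gene at chr7:26890321-26892097, 43.81 to 45.58 kb from the start and partly outside the window, at 2.74-fold over background for B6 and 4.39-fold for CAST. The second CAST female peak, 37.10 kb from the start, had a fold enrichment of 2.08.

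Cyp2b9 and Cyp2b13 belonged to a small set. Windows with no male peak in either strain and at least 500 bp under peaks in females of both were found for 11 of 15560 genes (0.0707%). Ranked by female covered bases summed over the strains, Cyp2b9 was first with 7622 bp and Cyp2b13 second with 4914 bp. The sums were not scaled by window length, which was 57.25 kb for Cyp2b9, 54.7 kb for Cyp2b13 and 23.68 kb for A1bg. The next were Sult2a6, a hydroxysteroid sulfotransferase gene, with 4335 bp, A1bg, which encodes a plasma glycoprotein, with 3020 bp, and Cyp4a31, of the fatty acid hydroxylase family, with 2308 bp.

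Cyp2b10 (ENSMUSG00000030483.8, chr7:26682639-26711643, plus strand, 10 merged exons) had peaks in all 4 lists. The male lists held 4 (B6) and 3 (CAST), and the female lists 10 and 9. In B6, males covered 4337 bp and females 7300 bp. In CAST, males covered 1281 bp and females 5631 bp, so both female lists lay above both male lists. The female to male ratio was 1.68 in B6 and 4.40 in CAST. The lower ratio in B6 came with the higher male value: B6 males covered more than 1.5-fold the bases of CAST males here, as did 5.70% of genes.

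Near its 5′ end, Cyp2b10 shared its main regions between the sexes. The region at chr7:26679569-26681110, 3.07 to 1.53 kb upstream of the start, merges overlapping peaks of all 4 lists, and the CAR motif printed above lies within it, under the B6 peaks only. Its fold enrichment was 2.67 for males and 2.72 for females of B6, and 3.14 for either sex of CAST. The fold enrichments of the sexes thus lay within 0.056 of each other in each strain. The −log10 p-values, which also grow with the number of reads, were 27.6 in B6 females and 29.2 in CAST females, and both male values rounded to 14. Ranked by score within each list, it stood at percentile 52.1 in males against 71.5 in females of B6, and at 51.5 against 74 in CAST. Whether read number, width or signal underlies the difference in rank was not tested.

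The region in intron 1 at chr7:26686608-26688301 was likewise called in all 4 lists. In B6 it had 2.32-fold enrichment over 1027 bp in males and 2.62-fold over 1438 bp in females. In CAST it had 1.97-fold over 304 bp in males and 3.06-fold over 1643 bp in females, so the CAST male list was the lowest by both measures. A region at chr7:26672673-26674607, 9.97 to 8.03 kb upstream, was called in both sexes of B6 (2.80-fold in males and 2.32-fold in females) and in CAST females (2.31-fold), and not in CAST males. A weaker one at chr7:26678161-26678809 was called in both sexes of CAST alone, with 1.89-fold in males and 2.0-fold in females. The only male-only region among all members lay 7.76 to 7.45 kb upstream of Cyp2b10 and was called in B6 males, with a fold enrichment of 2.12.

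The 3′ part of Cyp2b10 showed calls in females only. In intron 8 of the merged exons, at chr7:26704800-26705717 and 22.16 to 23.08 kb from the start, the fold enrichment of the female peaks was 3.80 in B6 and 3.93 in CAST, the highest at this gene in both lists. The summits of the female lists there lay 5 bp apart, and no male peak was called. Between 18.09 and 24.48 kb from the start, B6 females had 4 further peaks and CAST females 1, with fold enrichments between 1.76 and 2.96. Beyond the intron 1 region shared by the sexes, no male list had a call up to the end of the window. Just upstream of the start, at chr7:26682019-26682398, a weak region was called in both female lists (1.90-fold and 1.77-fold) and in neither male list.

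That weak region was the only call within 1 kb of a member's transcript start. Peaks within 1 kb of the start were found at 0 members in each male list and at 1 in each female list. Over all protein-coding genes the shares were 55.1% (B6 male), 55.3% (B6 female), 57.3% (CAST male) and 56.6% (CAST female). At Cyp2b9 the female peak nearest to the start lay 14.3 kb away in B6 and 14.8 kb away in CAST. At Cyp2b13 the distances were 20.04 kb and 37.1 kb. The members' calls were therefore mostly inside or beyond the genes and not at their promoters.

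**Figure D3:**
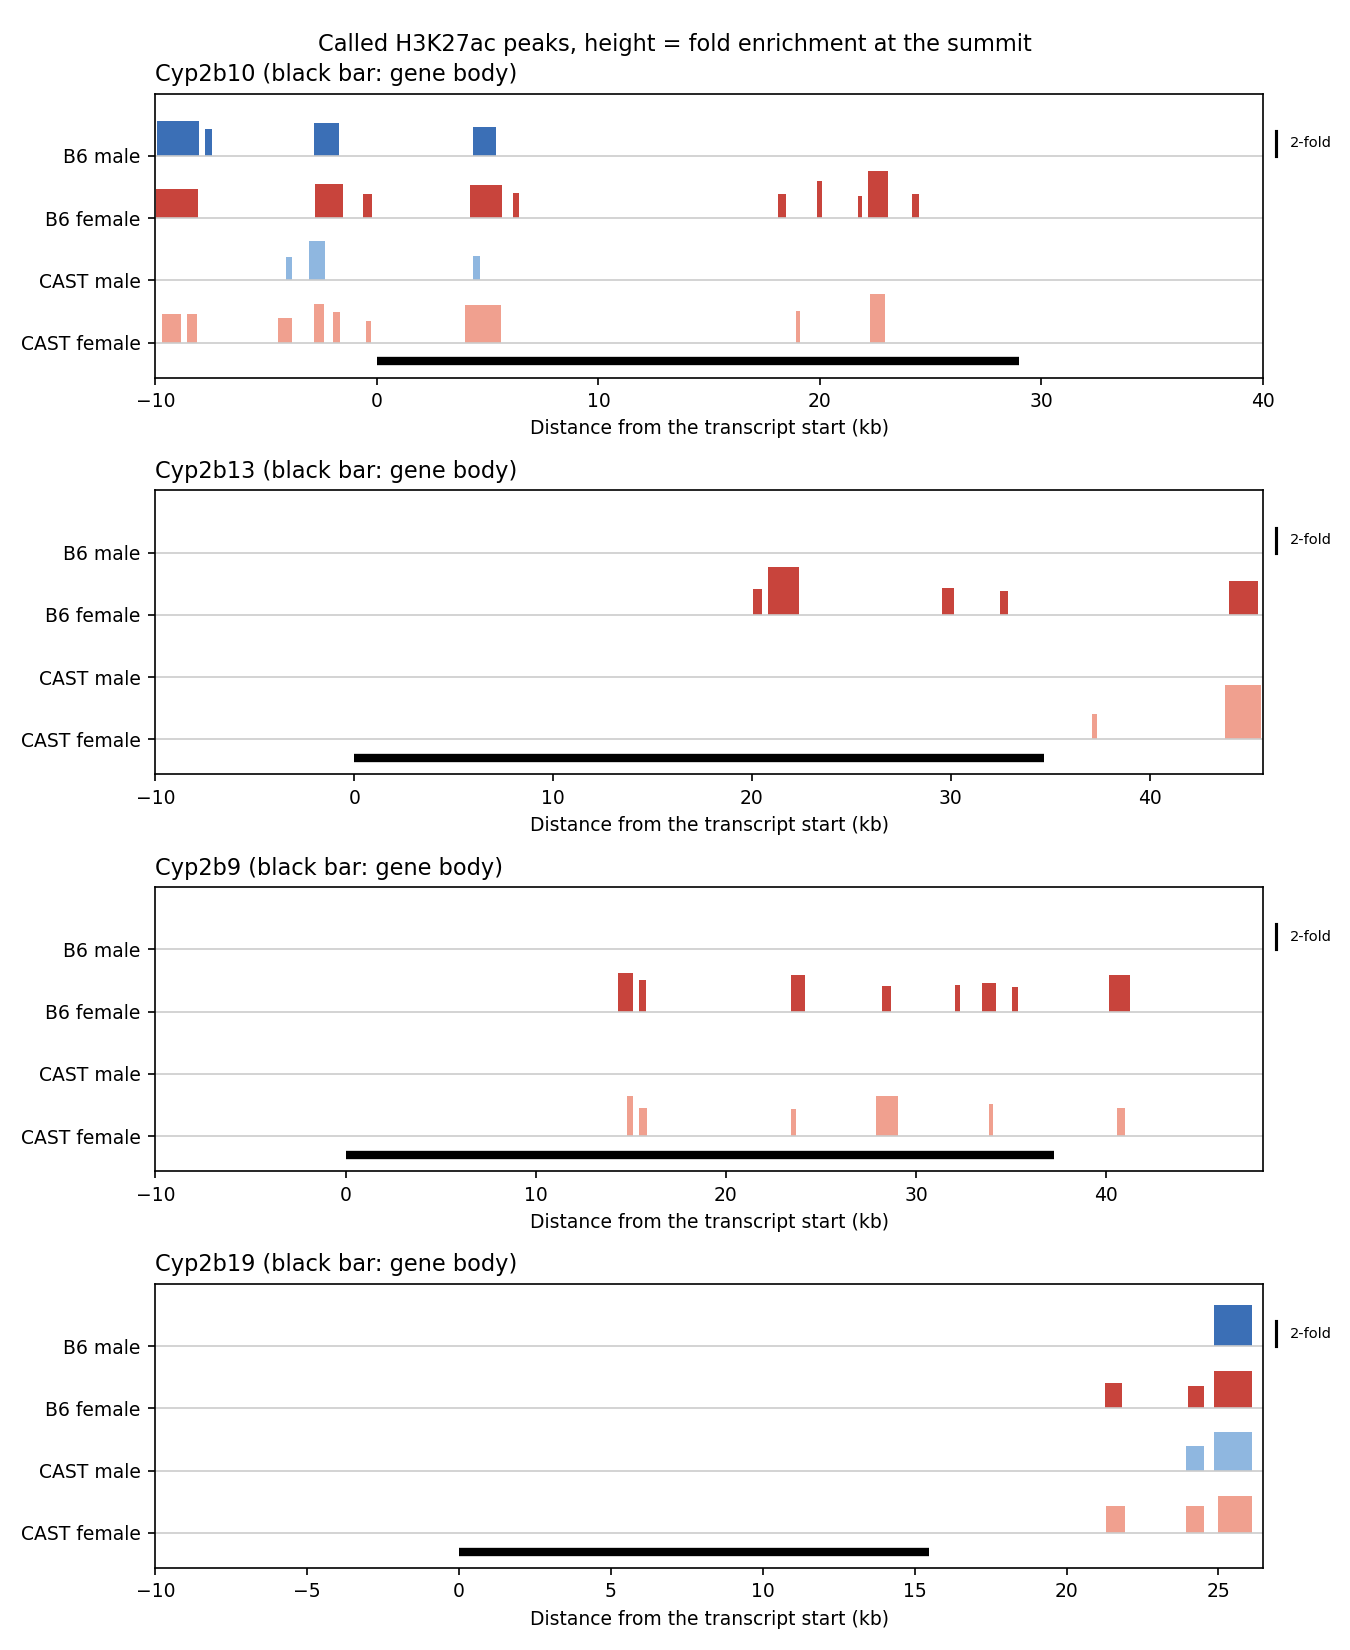
Called H3K27ac peaks around 4 Cyp2b genes, with distance from the transcript start in kb on the horizontal axis, 1 row per peak list and bar height giving the fold enrichment at the summit (scale bar, 2-fold). The black bar is the gene body. Cyp2b13 and Cyp2b9 have peaks in the female rows only, the 3′ part of Cyp2b10 likewise, and the peaks assigned to Cyp2b19 lie beyond its end.

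Cyp2b19 (ENSMUSG00000066704.5, chr7:27542182-27557649, plus strand, 9 exons) had no peak in its gene body in any list. Its window held 3 peaks in each female list, 1 in B6 males and 2 in CAST males, all downstream of the gene. In B6, males covered 624 bp and females 1710 bp. In CAST, males covered 1216 bp and females 1696 bp. The female to male ratio was 2.74 in B6 and 1.39 in CAST, so the CAST ratio stayed under the 1.5-fold rule. The outermost region, at chr7:27567026-27568301 and across the window's edge, was called in all 4 lists. Its fold enrichment was 3.31 for males and 3.03 for females of B6, and 3.10 for males and 2.98 for females of CAST. Here the male value was the higher one in both strains. A region at chr7:27563428-27564098 was called in both female lists (2.03-fold and 2.13-fold) and in neither male list, and one at chr7:27566103-27566718 in every list but that of B6 males.

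Cyp2b23 (ENSMUSG00000040650.8, chr7:27450246-27471456, minus strand, 9 exons) had 0 peaks in all 4 lists. The peak nearest to its start lay between 92.0 and 95.6 kb away. Of its words of 50 bases, 13.99% occurred more than once in mm9. The share was 100% in the stretches of 500 bp centred 28.46 to 30.96 kb from the start, downstream of the gene. The part of repeated words in the missing calls was not tested.

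Over all windows the peaks merged into 30 regions. In B6, 22 of the 27 regions called in that strain were female-only, against 17.5% over the genome, and 1 was male-only, against 17.4%. In CAST, 13 of 18 were female-only, against 14.1%, and 0 were male-only, against 21.5%. Of 15 regions called in both strains, 10 were female-only in both, against 2.15% of such regions over the genome. Only 3 of the 30 were called in all lists, against 40.4%. With 0 male-only regions in CAST, and the 1 of B6 not called in CAST, a disagreement in direction between the strains could not arise. Where a region was called in both sexes of a strain, its score ranked higher in the female list for 4 of 4 regions in B6, against 51.6% over the genome, and for 5 of 5 in CAST, against 40.0%. By fold enrichment the female value was higher for only 2 of 4 and 3 of 5. In the 15 regions called in both female lists, summits lay between 5 and 683 bp apart, with a median of 114 bp.

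Some of the called regions occupy matching places in paralogous genes. The 300 bases around the highest-ranked summit of each region were aligned to the windows of the other members, and 21 of 30 found a match. For 7 of them a match overlapped a called region by at least 1 bp, and regions that matched each other were both counted. How often uncalled sequence of the windows finds such a match was not measured. The pair with the strongest female-only call at Cyp2b10 is shown. The Cyp2b10 stretch is chr7:26704997-26705196 in intron 8 and the Cyp2b13 stretch chr7:26876123-26876321, also in intron 8. The pair formed by the exon 4 and intron 4 region of Cyp2b9, at chr7:26973250-26973449, and the intron 4 region of Cyp2b13, at chr7:26867570-26867757, follows. All are printed on the plus strand of mm9, and capitals mark bases that differ within a pair or have no partner.

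Cyp2b10 intron 8: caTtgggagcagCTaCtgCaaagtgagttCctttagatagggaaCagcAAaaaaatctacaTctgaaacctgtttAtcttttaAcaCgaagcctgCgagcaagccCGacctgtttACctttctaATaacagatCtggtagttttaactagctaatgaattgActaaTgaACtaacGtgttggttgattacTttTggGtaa
Cyp2b13 intron 8: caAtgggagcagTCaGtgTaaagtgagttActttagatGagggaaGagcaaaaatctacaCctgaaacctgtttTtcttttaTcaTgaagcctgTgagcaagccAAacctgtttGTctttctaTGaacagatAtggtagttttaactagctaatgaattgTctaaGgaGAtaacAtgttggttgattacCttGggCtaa
Cyp2b9 intron 4: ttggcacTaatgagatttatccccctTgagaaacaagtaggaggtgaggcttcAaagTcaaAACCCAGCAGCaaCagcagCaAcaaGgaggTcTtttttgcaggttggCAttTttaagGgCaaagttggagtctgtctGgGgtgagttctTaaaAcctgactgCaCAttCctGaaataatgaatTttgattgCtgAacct
Cyp2b13 intron 4: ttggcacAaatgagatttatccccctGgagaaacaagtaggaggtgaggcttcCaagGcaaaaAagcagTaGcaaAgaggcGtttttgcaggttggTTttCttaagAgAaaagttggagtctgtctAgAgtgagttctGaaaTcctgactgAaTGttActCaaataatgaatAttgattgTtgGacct

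The intron 8 stretches were identical at 171 of 201 aligned positions (85.1%), with 27 mismatches. Both lay under female peaks and under no male peak, with a fold enrichment of 3.80 at Cyp2b10 and 2.13 at Cyp2b13 in B6 females. In CAST females the Cyp2b10 stretch was called and the Cyp2b13 stretch was not. The intron 4 stretches were 81.0% identical over 200 aligned positions, and in B6 females their regions had fold enrichments of 3.10 at Cyp2b9 and 3.86 at Cyp2b13. In CAST females the Cyp2b9 region was called and the Cyp2b13 region was not. Not every matching place was called. The intron 8 region of Cyp2b9 at chr7:26986350-26987469, called in both female lists, matched a place 25.93 to 26.21 kb from the start of Cyp2b10. The match had 88.6% identity, and no list had a peak at the Cyp2b10 place.

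Because the authors kept uniquely mapped paired reads of 50 bases, the share of 50-base words found more than once in mm9, on either strand, was measured for each window. It was 10.8% for Cyp2b10, 30.7% for Cyp2b13, 25.8% for Cyp2b9, 13.99% for Cyp2b23 and 6.28% for Cyp2b19. The windows of Cyp2b13 and Cyp2b9 shared words chiefly with each other: 15.0% of the Cyp2b13 words occurred in the Cyp2b9 window, and 1.57% in that of Cyp2b10. Within 1 kb of the transcript start, 43.2% of words were repeated at Cyp2b13 and 41.1% at Cyp2b9, against 1.65% at Cyp2b10 and 0 at Cyp2b23 and Cyp2b19. In the promoters printed above the shares were 74.9% for Cyp2b13 and 61.8% for Cyp2b9. Promoter calls were missing at Cyp2b23 and Cyp2b19 too, and the part of repeated words in the missing calls at Cyp2b13 and Cyp2b9 was not tested.

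Peaks lay mostly in unique sequence, which was largely set in advance because only uniquely mapped reads were kept. The shares under and outside peaks thus do not show whether repeated sequence carried signal. In the Cyp2b9 window 0.144% of words under a peak were repeated, against 28.6% outside peaks, and in the Cyp2b13 window 5.11%, against 32.8%. Before its first call the Cyp2b13 window had 30.0 kb with 46.6% repeated words, and 24.7 kb with 11.3% from there on. The Cyp2b9 window had 24.3 kb with 37.9%, and 32.9 kb with 16.9%. A fragment of 200 bases would have both of its end words repeated at 16.8% of positions in the Cyp2b13 window and 10.9% in that of Cyp2b9. Both sexes were mapped to the same reference within a strain, so these shares are the same for the male and the female list. Between strains the reference differed, because CAST reads were mapped to a genome carrying known CAST variants. The uniqueness of words in that genome, and any larger rearrangement in CAST, were not analysed here. With only peaks of at least 90% unique words counted, 24 of 26 B6 female peaks and every peak of the other lists were kept. The peaks dropped were the strongest one of Cyp2b13, in intron 4 (14.05% repeated words), and 1 in intron 8 of Cyp2b10 (22.2%). The CAST to B6 ratio of covered bases in females was then 0.713.

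**Figure D4:**
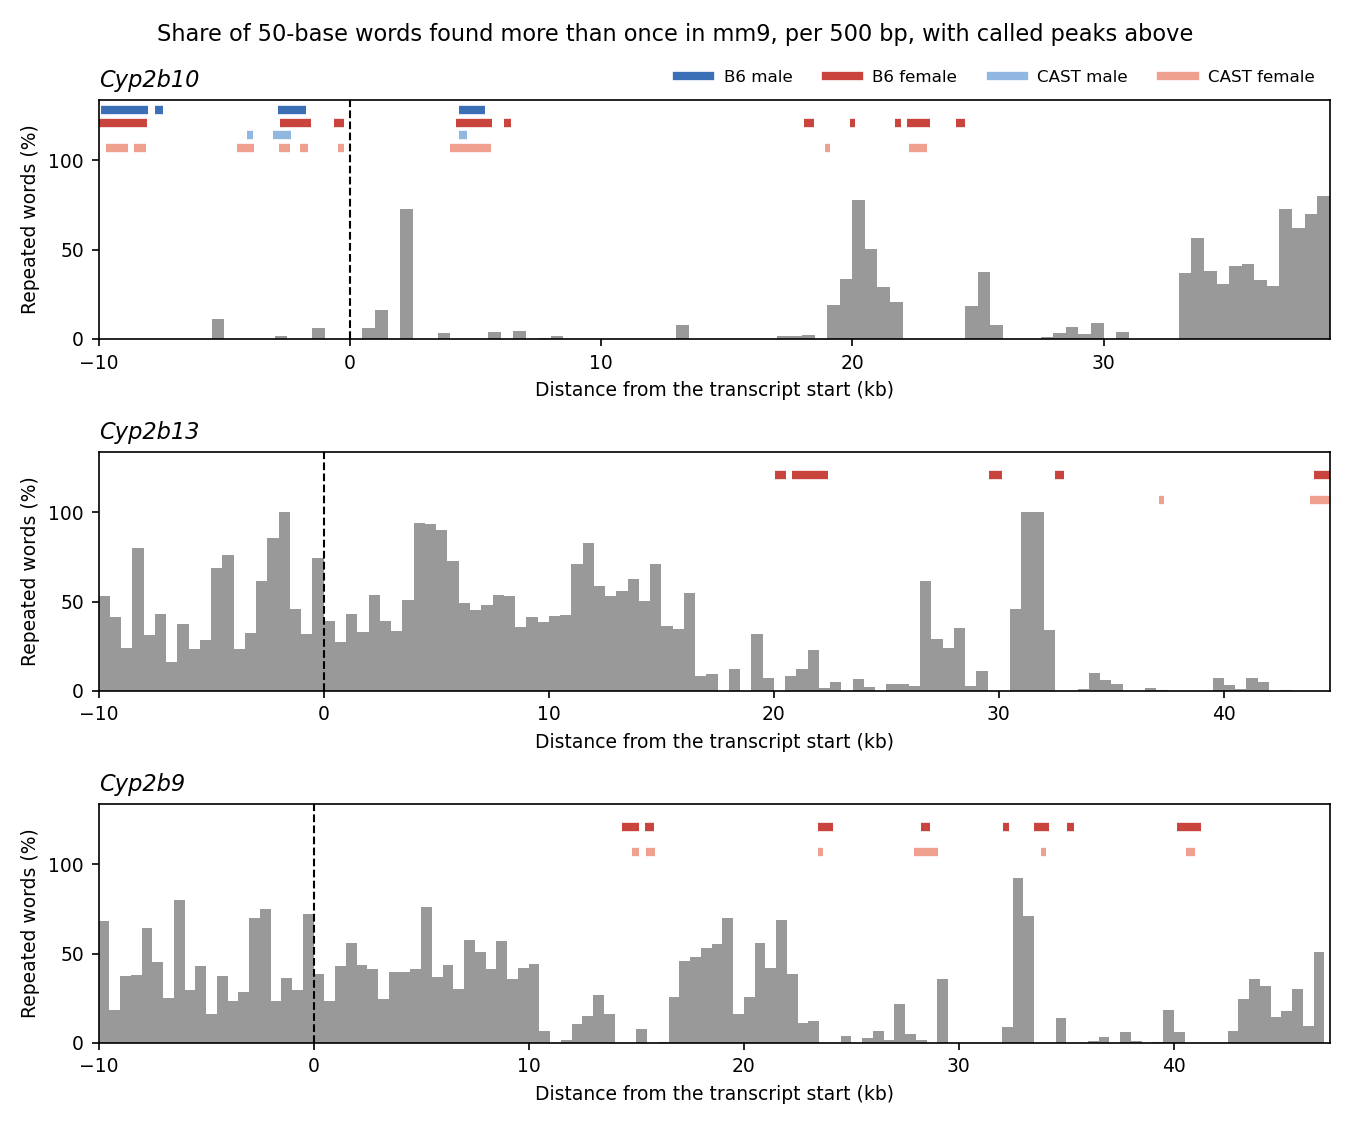
Percent of 50-base words found more than once in mm9, per 500 bp, against distance from the transcript start in kb (dashed line) for Cyp2b10, Cyp2b13 and Cyp2b9, with called peaks as coloured bars above, 1 row per list. The 5′ parts of Cyp2b13 and Cyp2b9 are rich in repeated words and hold no peak, and most female peaks lie where the share is low. The strongest Cyp2b13 peak, at 20.80 kb, has 14.05% repeated words. Of the Cyp2b10 peaks, that at 21.70 kb has 22.2% repeated words, and that at 19.89 kb has 0 but borders a stretch rich in them.

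Between strains, B6 females covered at least 1.5-fold more bases than CAST females at Cyp2b13 and Cyp2b9, 2 of the 4 members with enough coverage, against 11.3% of genes. At Cyp2b10 and Cyp2b19 the female lists of the strains were closer, with 7300 bp and 5631 bp at Cyp2b10 and 1710 bp and 1696 bp at Cyp2b19. Among males the strains differed at Cyp2b10 (4337 bp in B6 and 1281 bp in CAST) and, the other way, at Cyp2b19 (624 bp and 1216 bp).

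The stretch from 10 kb before Cyp2b10 to 10 kb after Cyp2b19 spans 895 kb, and the calls between the windows were also female. The B6 female list had 8 peaks there and the CAST female list 13, while both male lists had 0. With the windows included, B6 females had 34 peaks over 21.2 kb and CAST females 33 over 20.2 kb, and the female to male ratio of covered bases was 4.28 in B6 and 8.08 in CAST. Of the peaks between the windows, 4 B6 and 3 CAST female peaks lay 13.3 to 18.3 kb from Cyp2b9, with fold enrichments between 1.86 and 3.40. The highest fold enrichments were 4.71 at chr7:27204928-27206307 and 4.27 at chr7:26729175-26730671, 17.5 kb from Cyp2b10, both in CAST females, and neither place was called in B6 females. The longest run without a call was 879 kb in B6 males and 878.8 kb in CAST males, against 341.7 kb in each female list. No peak number was missing from any list in this stretch, so no call was removed there after numbering.

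Other P450 clusters with known sex-dependent genes were compared over the same windows. Peaks covered 7.41% of the Cyp2b windows in B6 females and 2.09% in B6 males, and 4.74% and 1.05% in CAST. For the 15 Cyp2c genes the shares were 3.05% and 2.98% in B6 and 2.77% and 2.55% in CAST, so that their female to male ratios were 1.02 and 1.08. The 9 Cyp3a genes had ratios of 1.13 and 1.24. The 6 Cyp4a genes had ratios of 1.25 in B6 and 4.36 in CAST, and in CAST they came close to the value of 4.51 for Cyp2b. Of the genes with enough coverage in both strains, female-higher calls in both numbered 3 of 4 for Cyp2b, 0 of 11 for Cyp2c, 1 of 5 for Cyp3a (Cyp3a16) and 2 of 4 for Cyp4a (Cyp4a10 and Cyp4a31). Against 0.643% of such genes over the genome, the 0 for Cyp2c in both strains is near the background. Within B6, female-higher calls numbered 0 of 11 for Cyp2c, 2 of 5 for Cyp3a and 2 of 4 for Cyp4a, against 4.73% of genes. Within CAST they numbered 3 of 12, 4 of 7 and 4 of 4, against 2.60%. Male-higher calls numbered 1 of 12, 1 of 7 and 0 of 4 in CAST, against 9.41%, and 0 for each family in B6, against 5.98%. Repeated words were 18.9% of the Cyp2b windows, 28.7% for Cyp2c, 27.5% for Cyp3a and 30.3% for Cyp4a, so the other clusters held more of them than Cyp2b.

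**Figure D5:**
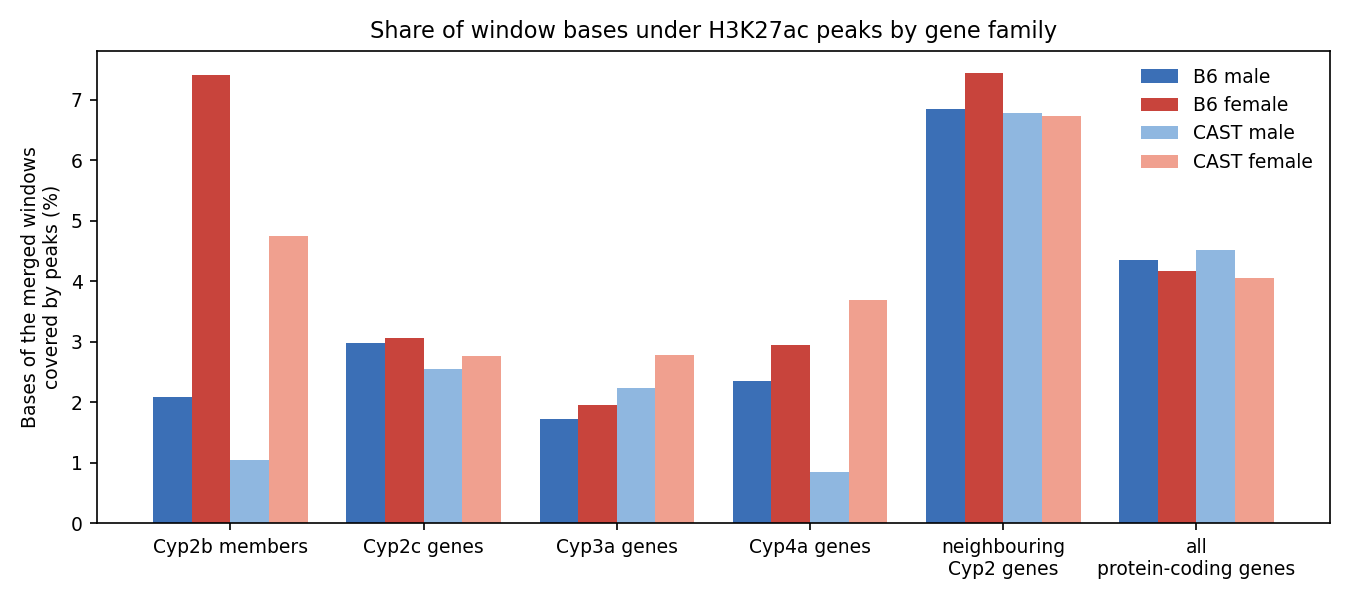
Percent of window bases (gene body and 10 kb on each side, overlapping windows merged) under H3K27ac peaks for the Cyp2b members, 3 other P450 families, the neighbouring Cyp2 genes and all protein-coding genes, with 1 bar per peak list. The female bars exceed the male bars by the most for Cyp2b in B6, and for Cyp2b and Cyp4a in CAST.

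The neighbours on the same chromosome that belong to other Cyp2 subfamilies showed no common lean. Their windows had a female to male ratio of 1.09 in B6 and 0.992 in CAST. Of the 6 of 8 with enough coverage, 1 was called female-higher in both strains, against 0.643% of genes. It was Cyp2a22, with 1348 bp in B6 females and 1505 bp in CAST females and ratios of 3.07 and 3.06. Cyp2a4, a steroid hydroxylase gene known for female-predominant expression, lies between Cyp2b9 and Cyp2b23 and had 0 peaks in every list, with 42.7% repeated words in its window. Cyp2f2, which encodes a naphthalene-oxidising enzyme, was called male-higher in CAST alone, with 3507 bp in females and 6518 bp in males. As 9.41% of genes were called so in CAST, 1 of 6 is near the background.

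For the CAR pathway list, all 15 genes had peaks in every list, and 0 of 15 were called for either sex in either strain. With 4.73% (B6) and 2.60% (CAST) of all genes called female-higher and 5.98% and 9.41% male-higher, these counts are near the background. At Nr1i3, which encodes CAR, females covered 6698 bp in B6 and 6551 bp in CAST, with female to male ratios of 0.943 and 0.911. At Por, the electron donor of P450 enzymes, the ratios were 0.981 and 1.00. Among the 9 genes of the growth hormone list, 1 was called female-higher in both strains, against 0.643% of genes, and 0 male-higher in either. The 1 was Cux2, a homeobox repressor known as female-specific in mouse liver, with 18930 bp in B6 females and 18010 bp in CAST females and ratios of 1.997 and 1.914. At Stat5b, the main transducer of growth hormone in liver, the ratios were 1.04 and 0.923.

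Motifs of liver factors were counted on both strands in the members' promoters, 250 bases before to 50 after the start, and described against all protein-coding genes. The C/EBP motif TTGCNNAA occurred in the promoters of all 5 members, against 10.3% of promoters. The members are paralogs that share ancestry, so the 5 are not independent, but the matches differed in letters and place. TTGCATAA began 20 bases before the start at Cyp2b10, 61 at Cyp2b19 and 78 at Cyp2b23. TTGCCAAA began 180 bases before it at Cyp2b13 and 182 at Cyp2b9. The STAT5 motif TTCNNNGAA, the BCL6 motif TTCCNNGAA, whose matches are a subset of the former, and the HNF6 and CUX2 motif ATTGAT occurred in 0 of 5, against 7.94%, 4.60% and 7.24%. In the upstream 3 kb, where matches are common, ATTGAT occurred at 5 of 5 members, against 65.7% of genes, TTCNNNGAA at 2 (Cyp2b10 and Cyp2b23), against 63.2%, and TTCCNNGAA at 0, against 37.6%. In the 300 bases around the summits of the 30 regions, TTCNNNGAA occurred in 3, TTCCNNGAA in 0, TTGCNNAA in 4 and ATTGAT in 3. Over all B6 female peaks the shares were 8.89%, 4.74%, 11.1% and 7.43% in the same order. One of the TTCNNNGAA matches lay 2647 to 2639 bases upstream of Cyp2b10, under a peak in all 4 lists.

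The genes outside the cluster whose fold-weighted coverage over the 4 lists was most like that of a member were found by the distance of log2(value + 1). For Cyp2b13 these were A1bg, Cyp4a31 and Hao2, at distances of 1.33, 1.504 and 1.53. For Cyp2b9 they were 4921528O07Rik (1.41), Sult2a6 (1.64) and A1bg (1.82). Cyp2b10 was nearest to Acot3, an acyl-CoA thioesterase gene (0.741), then to Cyp4a14 (1.01) and Thsd7a (1.03). Acot3 had 5046 bp and 3991 bp in females of B6 and CAST, and 2749 bp and 1457 bp in males, the same order of lists as Cyp2b10. For Cyp2b19, with little coverage, distances were smallest, from 0.181 for Scn2a1 to 0.203 for Ckm and the overlapping Gm17405.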

How the data were processed

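H3K27ac ChIP-seq peaks of 20 livers in 4 groups, with 4 inputs, were taken as 4 merged lists. As the study describes it, the authors mapped paired reads with Bowtie2 to mm9 (B6) or to a custom CAST genome, kept unique reads, called peaks with MACS2 against input and converted CAST coordinates to mm9. For each peak the authors deposited a score (10 times the −log10 q-value), the fold enrichment at its summit (a ratio) and the −log10 p-value. Here, peaks were intersected with GENCODE vM1 genes on the mm9 genome by at least 1 bp (Python 3.11.15, pandas 2.3.3), coordinates were made 1-based, and scores were ranked within a list. Fold-weighted coverage is the width in a window times fold enrichment. Words of 50 bases were counted exactly over 22 chromosomes, regions were aligned with blastn 2.17.0+ (word size 11, e-value 1e-05) and promoters with Biopython. Counting of overlaps and words was tested on simulated data. The members and gene lists were chosen with earlier results of these data known. All members are named, with the 2 regions of highest score and all regions called in 1 sex of both strains or both sexes of 1; other genes come from fixed lists and the likeness rule. No test was run, because each list pools the 5 livers of a group; the lists carry no read counts. Alternatives were other windows, the top 50% of each list, equal list lengths, overlap and merging rules and unique words.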

Additional observations from a re-analysis of the deposited data

Results flagged for a closer look

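In the Cyp2b10 region at chr7:26679569-26681110, called in all 4 lists, the female minus male difference in fold enrichment was 0.056 in B6 and -0.00239 in CAST. It was listed because the sign differed between the strains. The difference between strains was not tested, there is no replicate error, and both values are small beside the fold enrichments of 2.67 to 3.14.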

How the results depend on the processing

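Of 120 values recomputed under an alternative, 90 stayed within 1.5 times the main value, 30 moved further and 0 ratios crossed 1. With gene bodies alone, each male list had 1 peak and the CAST female list 8; covered bases were 1.03 kb (B6 males), 10.5 kb (B6 females), 0.304 kb (CAST males) and 4.94 kb (CAST females), the female to male ratios were 10.2 (B6) and 16.3 (CAST), the CAST to B6 ratio in males was 0.296, and there were 0 male-only regions in B6 and 7 female-only ones in CAST. In the top 50% of each list, 3 peaks were left in B6 males, 9 in each female list and 2 in CAST males, covering 9.45 kb in B6 females, 1.32 kb in CAST males and 6.63 kb in CAST females, with 6 female-only regions in each strain and 0 male-only ones in B6. Equal list lengths left 3 CAST male peaks, windows of 20 kb raised CAST female coverage to 17.1 kb, and merging peaks up to 500 bp apart left 0 male-only regions in B6. Over the whole stretch, an alternative chosen after seeing the data, as was a fold enrichment of at least 2 for the regions, CAST females had 33 peaks over 20.2 kb, against 34 over 21.2 kb in B6 females, the CAST female to male ratio rose to 8.08, and the CAST to B6 ratio in females rose to 0.951. Requiring 90% unique words moved no value beyond 1.5 times, but peaks made from uniquely mapped reads lie mostly in unique sequence to begin with. Within 2.5 kb of the start, 1 member had a call in each male list.

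No paired analysis was possible because each list pools the 5 livers of its group, and leaving out a liver could not be run for the same reason. Peaks record where signal crossed the peak caller's threshold, so a place with no call is not shown to lack the mark, and a region called in 1 sex is not a tested difference.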
